A study of Mus musculus with 6 samples.

Results

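The T cell receptor and CD3 genes were followed through lymph node cells that had been sorted as myeloid cells. The 10 members, of 32287 features in the gene matrix, were named by function, with earlier results of these data known. They were the receptor constant genes Trac, Trbc1, Trbc2, Trdc, Tcrg-C1, Tcrg-C2 and Tcrg-C4, and the CD3 genes Cd3e, Cd3d and Cd3g. All 10 were found in the matrix and all 10 passed the filter on low counts in every comparison. The question was how alpha-beta and gamma-delta constant genes were used by cells that carried CD3 transcripts, how far the members spread to other cell types, and whether either differed with immunization.

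The cells came from inguinal lymph nodes of Cd169Cre/+.Tdtomato fl/fl (CD169Tom) mice, C57BL/6J background, of both sexes and over 6 weeks of age. In these mice Cre is driven by the Siglec1 (CD169) locus and marks its cells with a tdTomato (TOM) reporter in the ROSA26 locus, so any cell whose history included Siglec1 expression could be labelled. CD11b hi TOM+ cells were sorted from 2 unimmunized mice and from 2 mice on day 9 after immunization, stained with 1 hashtag antibody per mouse and 6 further antibodies, pooled, and loaded on 2 droplet captures. The sources used here do not name the antigen these mice received. After filtering, 12139 cells remained, 2828 and 537 from the unimmunized and 4052 and 4722 from the immunized mice. Median depth was 5877 and 6280 UMIs (unique molecular identifiers, a count of distinct captured transcripts) per cell in unimmunized mice and 9674 and 12730 in immunized mice. Unless said otherwise, values are listed in the order unimmunized mouse 1, unimmunized mouse 2, immunized mouse 1, immunized mouse 2. Levels are given as CPM, the counts per 1e+06 UMIs of the summed cells.

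A T cell receptor is a pair of clonally rearranged chains, alpha with beta or gamma with delta, each built from variable segments joined to a constant region. The receptor has almost no cytoplasmic tail and signals through the CD3 gamma, delta and epsilon chains and CD3 zeta, which is encoded by Cd247. Trdc lies inside the alpha locus and is cut out when the alpha chain rearranges on that chromosome, whereas unrearranged or non-productive constant genes can still be transcribed, so a constant region transcript does not by itself show a receptor chain. Gamma-delta T cells with an interleukin-17 programme are known residents near the subcapsular sinus and interfollicular zones of lymph nodes, beside the CD169+ macrophages.

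On GRCm38, the build of the deposited data, Trdc (14:54142851-54148868, plus strand) ended 71652 bases before Trac (14:54220521-54224206, plus strand). Trbc1 (6:41538218-41539881) and Trbc2 (6:41546730-41548352) stood 6848 bases apart on the plus strand. The gamma constant genes were Tcrg-C1 (13:19214103-19217024, plus), Tcrg-C2 (13:19304649-19307551, minus) and Tcrg-C4 (13:19344558-19352756, plus). Of the distinct 31-base words of Trbc1, 44.8% were also in Trbc2, and 35.8% of those of Tcrg-C1 were in Tcrg-C2. Reads from these pairs could have been assigned to either copy or dropped, so the split within each pair is uncertain. Trac and Trdc shared none, nor did Tcrg-C4 with Tcrg-C1 or Tcrg-C2.

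The 3 CD3 genes chose the cells described here, and they lie together on chromosome 9: Cd3g (9:44969572-44980431, minus) and Cd3d (9:44981786-44987339, plus) were 1354 bases apart and transcribed away from each other, and Cd3e (9:44998740-45009627, minus) began the cluster's far end, 11400 bases past Cd3d. Their promoters are shown because these genes set which cells were read, and all of them were highest in the same marker gates. Each sequence runs from 250 bases before to 50 bases after the start in RefSeq for GRCm38.p6, with capitals marking the E-box letters CANNTG, which read the same on both strands.
Cd3g, chr9:44980382-44980681, minus strand: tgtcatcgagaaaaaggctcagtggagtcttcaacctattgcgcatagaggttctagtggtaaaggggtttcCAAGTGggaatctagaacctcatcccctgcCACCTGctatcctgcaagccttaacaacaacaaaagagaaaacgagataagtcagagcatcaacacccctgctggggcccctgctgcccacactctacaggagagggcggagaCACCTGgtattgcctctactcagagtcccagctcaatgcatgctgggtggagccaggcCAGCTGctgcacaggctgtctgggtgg
Cd3d, chr9:44981536-44981835, plus strand: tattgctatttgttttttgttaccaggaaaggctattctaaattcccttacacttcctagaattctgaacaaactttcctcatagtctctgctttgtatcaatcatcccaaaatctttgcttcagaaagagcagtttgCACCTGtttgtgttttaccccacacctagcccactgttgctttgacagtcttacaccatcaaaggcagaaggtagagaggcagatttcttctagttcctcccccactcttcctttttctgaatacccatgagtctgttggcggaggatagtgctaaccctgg
Cd3e, chr9:45009562-45009861, minus strand: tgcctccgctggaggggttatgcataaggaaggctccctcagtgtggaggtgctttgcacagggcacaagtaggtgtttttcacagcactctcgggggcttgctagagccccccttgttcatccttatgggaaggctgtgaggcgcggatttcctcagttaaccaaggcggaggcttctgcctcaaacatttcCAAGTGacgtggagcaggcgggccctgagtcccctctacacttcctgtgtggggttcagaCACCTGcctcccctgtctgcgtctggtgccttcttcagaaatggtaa
The Cd3g promoter held 4 matches, Cd3d 1 and Cd3e 2. At least 1 match was found in 72.3% of 32851 mouse promoters of this length, with a median of 1, so Cd3g and Cd3e were above the median, and no use of these letters by a factor can be read from it.

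A CD3 cell was defined as one with at least 3 UMIs summed over Cd3e, Cd3d and Cd3g. The sum was strongly split: 10299 cells held none, 452 held 1, 40 held 2 and 56 held 3 or 4, while 211 held 5 to 9, 709 held 10 to 19 and 372 held 20 or more. The threshold thus fell in a sparse stretch and left 1348 CD3 cells, 909, 117, 219 and 103 by mouse. The CD3 genes chose the cells, and their concentration in them is therefore no finding. The receptor genes were not used for the choice. CD3 cells were 11.1% of all cells and held 96.6% of all Trac UMIs, 92.2% of Trdc, 94.1% of Tcrg-C1, 92.4% of Tcrg-C2, 86.5% of Trbc2, 79.2% of Trbc1 and 75.4% of Tcrg-C4. Trbc1 and Tcrg-C4 therefore had the largest shares of their UMIs outside CD3 cells, and part of those were in the NK gate described further on.

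Trac and Trdc divided the CD3 cells. Trac UMIs without Trdc were present in 816 cells, Trdc UMIs without Trac in 219, both in 66 and neither in 247. In Trdc-only cells the median was 7 Trdc UMIs and 5.94% held a single one. Trac was captured less deeply: the median of Trac-only cells was 2 UMIs and 29.2% held a single one, so a cell with neither transcript cannot be read as lacking Trac. Of the 66 cells with both, 63.6% held only 1 Trac UMI and 30.3% only 1 Trdc UMI.

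**Figure D1:**
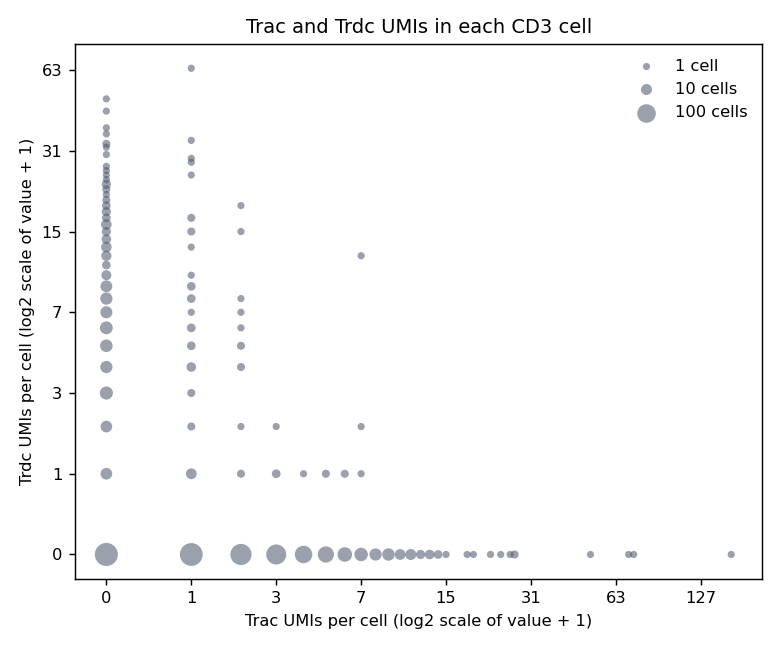
Each point is a combination of Trac UMIs (x axis) and Trdc UMIs (y axis) per CD3 cell on a log2 scale of the value + 1, with area growing with the number of cells. The 816 Trac-only cells lie on the x axis and the 219 Trdc-only cells on the y axis, and only 66 cells lie off both.

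The sort was made on CD11b and TOM, so the CD3 cells were checked for both and for macrophage RNA. Itgam, which encodes CD11b, had a UMI in 8.14, 7.69, 12.3 and 9.71% of CD3 cells, against 66.6 to 77.9% of cells of a monocyte marker gate. Reporter UMIs were present in 0.9901, 0.855, 3.20 and 0.971% of CD3 cells. In the macrophage gate they were in 0.541, 0, 4.92 and 7.13% of cells, and in the monocyte gate in 4.88 to 8.28%. Siglec1 UMIs were in 1.94 to 5.13% of CD3 cells, 5.66 to 28.2% of the macrophage gate and 7.69 to 22.3% of the monocyte gate. The CD169 antibody had a median of 55, 49, 24 and 4 counts on CD3 cells, against 56, 44.5, 28 and 29 on NK cells, 2 to 5 on B cells and 37, 14, 6 and 4 on the macrophage gate. CD3 and NK cells of unimmunized mice thus carried more of this antibody than the macrophage gate. In most CD3 cells the CD11b hi and TOM+ labels thus had no matching transcript, at a depth where a single low transcript is often missed. Reporter UMIs were missing from most macrophage-gate and monocyte-gate cells too, so their absence does not set CD3 cells apart. The summed level of 9 macrophage genes in CD3 cells was 3498, 4615, 6941 and 5755 CPM, mostly Lyz2, against 20360 to 32170 in the macrophage gate. C1qa, a complement gene that is itself a marker of the macrophage gate, was at 38.4, 24.5, 78.1 and 111 CPM against 1443 to 2234. Of the CD3 cells, 156 (11.6%) also passed a B, macrophage, monocyte, dendritic or neutrophil gate, 15.1% of Trdc-only and 10.5% of Trac-only cells. The part of attached macrophage material or of mixed droplets in the results was not tested.

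The gamma constant genes were higher in Trdc-only than in Trac-only CD3 cells. Trdc and Trac defined the classes and the CD3 genes the cells, so these 5 members were not tested. Of the other 5 members, 3 were higher and 1 was lower by edgeR's quasi-likelihood test at an adjusted p under 0.05, against 0.822% higher and 0.961% lower of 7177 genes tested. Tcrg-C1 was at 524, 220, 385 and 182 CPM in Trdc-only cells and at 163, 143, 89.9 and 40.3 CPM in Trac-only cells, a log2 difference of 1.76 ± 0.24 (SE, adjusted p = 5.72e-05, edgeR). Tcrg-C2 was at 259, 238, 305 and 151 against 95.3, 122, 50.5 and 48.1 CPM, a log2 difference of 1.77 ± 0.20 (adjusted p = 3.88e-06, edgeR). The classes did not overlap for either gene, but the share of all genes that separated the classes in this way was not counted, here or below. Without immunized mouse 1 both calls were lost, with adjusted p of 0.0874 for Tcrg-C1 and 0.209 for Tcrg-C2 by edgeR.

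Tcrg-C4, which shares no sequence words with Tcrg-C1 or Tcrg-C2, was at 199, 132, 185 and 242 CPM in Trdc-only and 55.9, 31.02, 20.3 and 20.2 CPM in Trac-only cells. It had the largest of the tested member differences, a log2 difference of 2.50 ± 0.25 (adjusted p = 2.76e-07, edgeR), lost in capture 1 alone (adjusted p = 0.162). Trbc2 was lower in Trdc-only cells, at 731, 510.2, 723 and 848 against 1178, 1224, 1270 and 1586 CPM, a log2 difference of -1.01 ± 0.14 (adjusted p = 5.72e-05, edgeR). In every mouse the Trdc-only cells still carried Trbc2 in quantity. Trbc1 was at 412, 414, 811 and 454 against 523, 606, 523 and 625 CPM, and the classes overlapped (log2 difference -0.18, adjusted p = 0.779, edgeR), though without immunized mouse 1 it was called lower (-0.75, adjusted p = 0.0286). The levels of the CD3 genes depend on the choice of cells and are a description only. Cd3g, for example, was at 1173, 836, 2056 and 1392 CPM in Trdc-only and 933, 926, 924 and 1006 CPM in Trac-only cells. The 5 cells of immunized mouse 2 are the fewest behind any of these values.

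**Figure D2:**
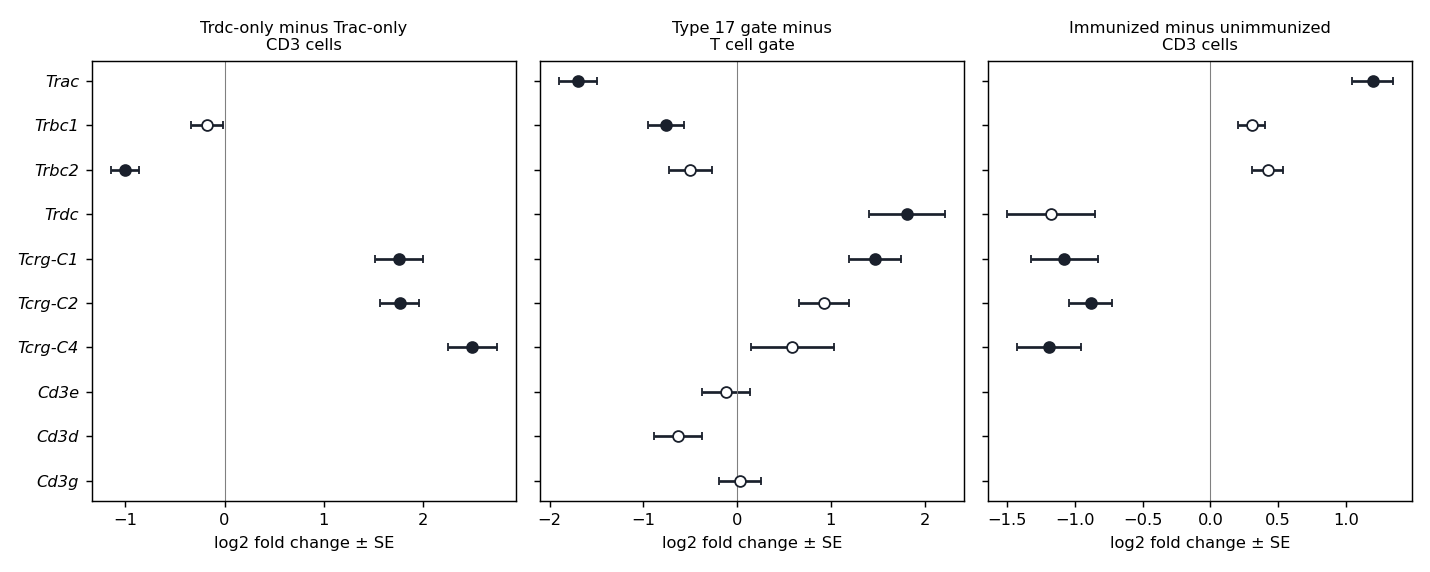
Log2 fold changes with their standard errors (x axis) for the members (y axis) in 3 comparisons, with filled points at an adjusted p under 0.05 by edgeR and open points above it. Trac and Trdc are left out of the first panel because they chose its classes and the CD3 genes out of the first and last because they chose the cells. In the first panel Tcrg-C4 stands highest at 2.50.

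Constant region use was less separate cell by cell than Trac and Trdc were. Of the Trdc-only cells, 94.5% held a UMI of any Tcrg constant gene and 94.1% a UMI of Trbc1 or Trbc2. Among Trac-only cells 99.4% held a Trbc UMI, and 56.5% also held a Tcrg UMI. At least 3 Tcrg UMIs were found in 77.2% of Trdc-only and 29.3% of Trac-only cells. Gamma transcripts were thus frequent in both classes and beta transcripts near universal in both.

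A functional beta chain uses one constant gene, so the balance of Trbc1 and Trbc2 was read in cells with at least 5 Trbc UMIs. Of 726 such Trac-only cells, Trbc1 made up at least 90% of the UMIs in 24, Trbc2 in 361, and both were mixed in 341. The 144 Trdc-only cells were mixed in 120, with Trbc2 dominant in 22 and Trbc1 in 2. These counts carry the uncertainty of the shared sequence named above. Among cells with at least 3 Tcrg UMIs, 1 gene held at least 90% in 18 of 169 Trdc-only cells, in each case Tcrg-C1, and in 84 of 239 Trac-only cells. The rest of these Trdc-only cells had UMIs assigned to more than 1 gamma constant gene. Between Tcrg-C1 and Tcrg-C2 that split carries the same uncertainty of shared sequence, so it does not show that a cell transcribed both.

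Variable genes were sparsely captured by the 3 prime assay, with 901 UMIs of 176 features in 520 CD3 cells, and are given as counts without a test. Trdv UMIs numbered 131 in the 219 Trdc-only cells and 4 in the 816 Trac-only cells. The reverse held for alpha and beta segments: Trav UMIs numbered 9 against 138 and Trbv UMIs 5 against 80. Gamma segments were in both, with 166 UMIs in the 219 Trdc-only and 193 in the 816 Trac-only cells, so more per cell in the Trdc-only class. The variable genes were not used to set the classes, though Trav and Trdv segments share a locus with Trac and Trdc.

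Trdv4 led the delta segments, at 45.2 UMIs per 100 Trdc-only cells against 0.368 per 100 Trac-only cells. Trdv5 was at 7.76 and Trdv2-2 at 6.39, with 0 in Trac-only cells. Among gamma segments, Tcrg-V6 separated the classes most, at 19.6 against 0.490 per 100 cells, and Tcrg-V1 was at 7.76 against 1.35. Trgv2 (35.6 against 14.1) and Tcrg-V4 (8.68 against 7.11) were seen in both. Alpha and beta segments went the other way: Trbv12-2 was at 0.457 against 2.21, Trav16n at 0 against 1.23 and Trav1 at 0 against 1.35 per 100 cells. Of their UMIs in all cells, Trdv4 had 122 of 167 in CD3 cells and Trdv2-2 only 16 of 57.

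**Figure D3:**
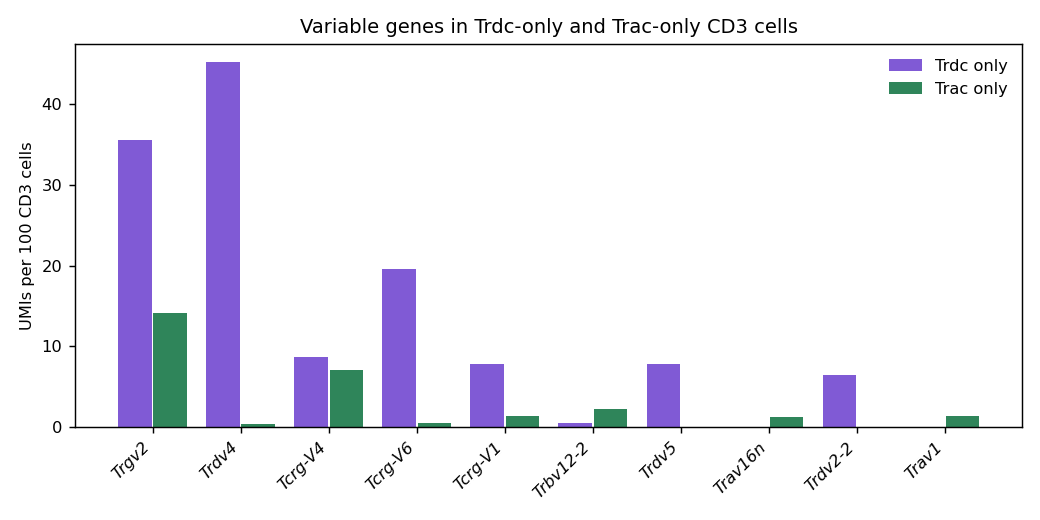
UMIs per 100 cells (y axis) of the 10 variable genes with at least 10 UMIs in CD3 cells (x axis), in Trdc-only (purple) and Trac-only (green) cells. Trdv4 reaches 45.2 and Tcrg-V6 19.6 in Trdc-only cells, while Trgv2 and Tcrg-V4 are present in both classes.

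Tcrg-V6 and Trdv4 together are known from a fetal-derived gamma-delta subset that makes interleukin-17. A Trdv4 UMI was in 48 Trdc-only cells, a Tcrg-V6 UMI in 31 and both in 18. By mouse the Trdv4 cells numbered 45, 0, 3 and 0, of 178, 17, 19 and 5 Trdc-only cells, and the Tcrg-V6 cells 29, 1, 1 and 0. The pattern thus rests almost wholly on unimmunized mouse 1. Of the 61 Trdc-only cells with either segment, 38 passed a type 17 marker gate (defined below), as did 61 of the 158 with neither.

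Other genes of the pathway were read from fixed lists in the same fit. Of 20 TCR signalling genes, 1 was higher and 6 were lower in Trdc-only cells, with a median log2 difference of -0.18 against -0.08 over all genes. The higher one was Cd247, which encodes CD3 zeta, at 224, 141, 169 and 121 CPM in Trdc-only and 50.03, 49.6, 82.0 and 110 CPM in Trac-only cells (log2 difference 1.30 ± 0.23, adjusted p = 0.000986, edgeR). All 4 Trdc-only values were above all 4 Trac-only values, again with the share of all such genes not counted. The Cd247 call was lost without immunized mouse 1 (0.80, adjusted p = 0.543), without unimmunized mouse 1 (1.04, adjusted p = 0.246) and in capture 1 alone (1.26, adjusted p = 0.0677), all by edgeR.

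Of 11 tested coreceptor, naive and helper genes, 7 were lower and none higher in Trdc-only cells, with a median of -1.81. Cd8b1, a chain of the CD8 coreceptor, had 0 UMIs in the Trdc-only cells of every mouse and 43.1, 122, 113 and 274 CPM in Trac-only cells. Pooled over the mice, Trac-only cells were at 90.1 CPM. The floor, 3 counts over the whole Trdc-only group, was 2.08 CPM, which is 43.2-fold lower. Most Trdc-only UMIs came from unimmunized mouse 1, which had the lowest Trac-only value, so this pooled ratio is not a bound within a mouse. Cd8a was at 2.57, 0, 0 and 0 against 34.2, 76.5, 57.1 and 180 CPM, and Cd4 at 8.56, 0, 0 and 0 against 18.6, 33.1, 45.9 and 35.6 CPM. Lef1, a factor of naive T cells, and Cd40lg, the CD40 ligand of helper cells, were also lower. Their Trdc-only values, of 0 to 30.3 CPM for Lef1 and 0 to 8.80 CPM for Cd40lg, were below all Trac-only values, which began at 38.9 and 27.9 CPM. Of 16 alternative settings, Cd8a, Cd8b1 and Lef1 were called in 16, and Cd4 and Cd40lg in 12 each.

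The list of innate-like gamma-delta genes had 4 of 16 higher and 1 lower, with a median of 0.45. Sox13, a transcription factor of gamma-delta cells that make interleukin-17, was at 95.9, 79.2, 56.2 and 60.5 CPM in Trdc-only against 13.1, 16.5, 6.56 and 6.20 CPM in Trac-only cells (log2 difference 2.86 ± 0.40, adjusted p = 5.72e-05, edgeR). Blk, a Src family kinase, followed at 1.60 ± 0.22, then Il1r1, the interleukin-1 receptor, at 1.16 ± 0.29 and Maf, a transcription factor, at 0.64 ± 0.17 (adjusted p of 5.72e-05, 0.0329 and 0.0394, edgeR). Of 16 alternative settings, Blk was called in 16 and Sox13 in 13, but Il1r1 and Maf in only 8 each. The gene that went the other way was Icos, a costimulatory receptor, at -1.41 ± 0.21 (adjusted p = 0.000138, edgeR). It was named after its value was seen, as a call against its list. None of the 9 macrophage genes passed in this comparison.

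Cell types were then gated on markers that include no member, with at least 3 UMIs from at least 2 markers of a type. The gates held 455 T cells (markers such as Cd5, Cd28 and Bcl11b), 409 type 17 lymphocytes (markers such as Il23r, Il17re, Cd163l1 and Il17a), 387 NK, 281 B, 2395 macrophage, 2477 monocyte, 539 dendritic and 14 neutrophil cells. A further 1259 passed several gates and 3923 passed none. CD3 cells made up 98.2% of the T cell gate, 95.4% of the type 17 gate, 3.36% of the NK gate, 0.356% of the B gate and 0.710% of the macrophage gate. The T cell and type 17 gates were not separate kinds: 203 of all kept cells met both marker rules. Those in no further gate counted as type 17, and how many of the 409 they were was not counted. A further 335 CD3 cells, 60 of them Trdc only and 179 Trac only, were in no gate.

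**Figure D4:**
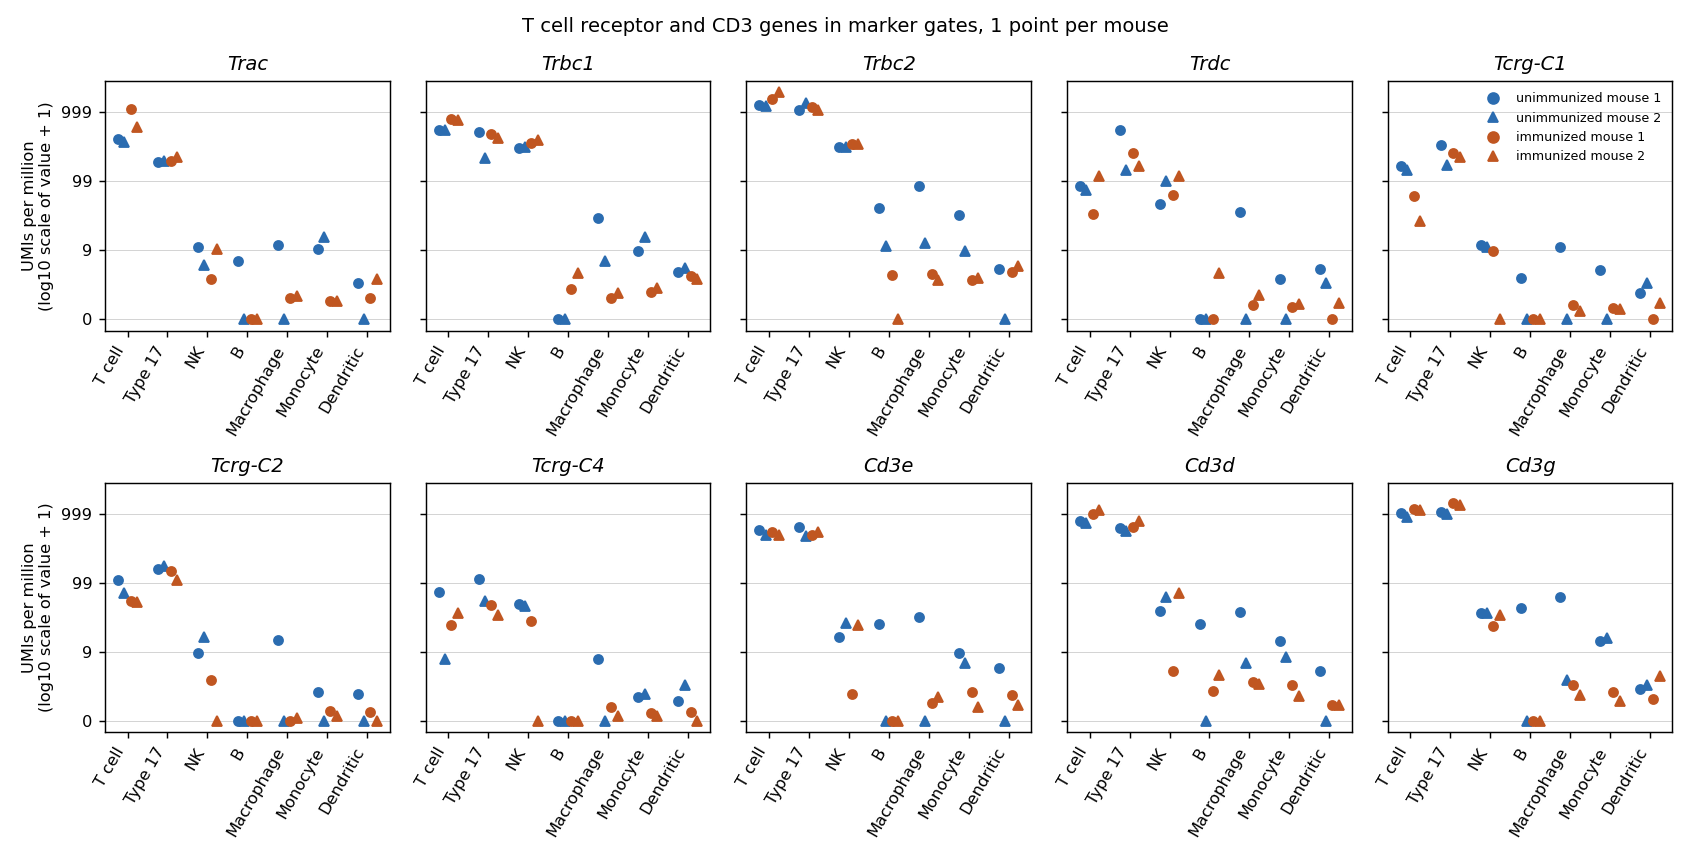
CPM (y axis, log10 scale of the value + 1) of the 10 members in 7 marker gates (x axis), 1 point per mouse, blue for unimmunized and orange for immunized. Trbc1 in the NK gate lies between 301.7 and 400.3, near its level in the type 17 gate, whereas Trac, Cd3e, Cd3d and Cd3g fall to 71.5 or less there.

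The type 17 gate was higher in Trdc and Tcrg-C1 and lower in Trac and Trbc1 than the T cell gate. These were 2 members higher and 2 lower of 10 tested, against 0.798% and 1.77% of 10650 genes (85 higher and 189 lower, or 111 and 144 when edgeR was given DESeq2 size factors). Trac was at 188, 194, 194 and 226 CPM in the type 17 gate and 410.1, 365, 1103 and 617 CPM in the T cell gate, a log2 difference of -1.69 ± 0.20 (adjusted p = 6.99e-06, edgeR). Trdc was at 543, 146, 256 and 167 against 84.0, 73.7, 32.2 and 119.7 CPM, a log2 difference of 1.81 ± 0.41 (adjusted p = 0.0127, edgeR). Neither gene overlapped between the gates, but the share of all genes that separated them was not counted, here or for the lists below.

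Tcrg-C1 was at 336, 173, 259 and 226 CPM in the type 17 gate against 167, 144, 60.1 and 25.8 CPM in the T cell gate (log2 difference 1.47 ± 0.28, adjusted p = 0.00224, edgeR). Trbc1 was at 511, 216, 491 and 418 against 552, 551, 785 and 767 CPM (-0.76 ± 0.19, adjusted p = 0.0290, edgeR). The other gamma constant genes did not pass, with log2 differences of 0.93 ± 0.27 for Tcrg-C2 and 0.59 ± 0.44 for Tcrg-C4, nor did Trbc2 (-0.50 ± 0.23), Cd3d (-0.63 ± 0.26), Cd3e (-0.12 ± 0.25) or Cd3g (0.03 ± 0.23). The Trac call held in all 16 alternatives. Trdc was called in 12 of 16, with log2 differences of 1.13 to 3.09, and Tcrg-C1 in 14 of 16, with 1.18 to 2.07. The settings that lost the Trdc call included those without unimmunized mouse 1 and without immunized mouse 1. Those that lost the Tcrg-C1 call included the one without unimmunized mouse 1. Trbc1 lost its call in 9 of 16.

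Gamma-delta use was not a property of the type 17 gate as a whole. Of its 390 CD3 cells, 99 were Trdc only, 203 Trac only, 20 both and 68 neither, while the 447 CD3 cells of the T cell gate held 19, 341, 15 and 72. Read the other way, 45.2% of all Trdc-only and 24.9% of all Trac-only cells passed the type 17 gate. By mouse these were 50, 11.8, 31.6 and 40% of Trdc-only and 30.4, 21.9, 15.6 and 12.5% of Trac-only cells, so unimmunized mouse 2, with 2 of 17 Trdc-only cells, went against the other 3 mice.

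The fixed lists moved alongside. Coreceptor, naive and helper genes were lower in the type 17 gate in 7 of 12, with a median log2 difference of -2.13 against -0.03 over all genes. Lef1, Cd8b1 and Ccr7, a chemokine receptor of naive T cells, were at 11.8 CPM or less in every type 17 library and at 34.0 CPM or more in every T cell library, as was Cd8a. Innate-like genes were higher in 8 of 16 and lower in 1, with a median of 0.97. Among them Blk was at 381, 248, 291 and 284 CPM against 139, 102, 50.4 and 28.2 CPM, and Ccr6, a chemokine receptor, at 217, 199.5, 191 and 251 against 137, 70.2, 51.8 and 18.8 CPM. Cxcr6 differed by 1.14, Tmem176a by 1.12 and Tmem176b by 1.02 on the log2 scale. TCR signalling genes were lower in 5 of 20 and higher in none, with a median of -0.50, and none of the 9 macrophage genes passed.

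NK cells carry no rearranged receptor but are known to transcribe some constant genes. In the NK gate, with its 13 CD3 cells included, 7 of 10 members were above the macrophage gate. This was against 16.6% of genes higher and 22.1% lower of 10650 tested. Trbc1 was at 301.7, 315, 358 and 400.3 CPM (log2 difference 5.73 ± 0.26, adjusted p = 5.80e-15, edgeR) and Trbc2 at 310.3, 309.7, 345 and 348 CPM (4.397 ± 0.29, adjusted p = 5.18e-12, edgeR). In the macrophage gate the same genes were at 28.0, 5.93, 1.04 and 1.41 CPM and at 83.3, 11.8, 3.53 and 2.67 CPM. The ranges of neither gene overlapped, but the share of all genes that separated these gates in this way was not counted.

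Trdc in the NK gate was at 45.6, 102, 61.7 and 119 CPM (3.48 ± 0.52, adjusted p = 6.27e-06, edgeR) and Tcrg-C4 at 48.7, 45.7, 27.3 and 0 CPM (4.27 ± 0.60, adjusted p = 3.82e-06, edgeR). In the macrophage gate Tcrg-C4 was at 7.01, 0, 0.622 and 0.202 CPM, so the gates overlapped. Its call held in 15 of 16 alternatives, and its lowest log2 difference among them was 0.35. Tcrg-C1, Cd3d and Cd3g also passed, at 2.01, 1.68 and 1.61, though Tcrg-C1 turned to -0.87 in capture 2 alone and to -1.22 without immunized mouse 1. Trac was at 10.2, 5.08, 2.87 and 9.53 CPM and Cd3e at 15.7, 25.4, 1.44 and 23.8 CPM, and neither passed (0.84 ± 0.56 and 0.89 ± 0.62), nor did Tcrg-C2 (1.80 ± 0.79, adjusted p = 0.0780, edgeR).

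The NK gate included 13 CD3 cells. With CD3 cells left out of the other gates, a check added after the data were seen, NK cells held Trbc1 at 306, 331, 352 and 405 CPM and Trdc at 34.7, 58.8, 59.9 and 88.8 CPM, and the differences from macrophages were 6.88 and 5.45 (both called by edgeR). Cd3e was then at 1.46 to 5.34 CPM in NK cells. Cd3d went from 38.5, 60.9, 4.31 and 71.5 to 5.78, 21.4, 4.38 and 14.8 CPM. Cd3g went from 36.1, 35.5, 23.0 and 33.4 to 7.43, 0, 8.77 and 4.93 CPM. These levels are no finding because the CD3 genes chose the cells left out. The Cd3d and Cd3g levels of the whole NK gate, called above, thus included UMIs of CD3 cells. Tcrg-C1 was at 7.43, 0, 8.77 and 0 CPM without CD3 cells, against 11, 10.15, 8.61 and 0 CPM with them. At a fixed 2000 UMIs per cell, Trbc1 was detected in 46.2% of NK cells (74.7% before thinning), 0 of 276 B cells, which allows a share of cells with a UMI of up to 1.09%, and 0.704% of macrophages. Before thinning, 3 of 281 B cells (1.07%) held a Trbc1 UMI. Trdc was detected in 10.1% of NK cells (23.0% before thinning), 0.362% of B cells and 0.563% of macrophages, and Cd3e in 2.60, 0.725 and 0.704%. Median depths before thinning were 5458, 4344 and 11680 UMIs, and 2 NK, 5 B and 263 macrophage cells were too shallow to thin. Trac was detected in 2.34% of thinned NK cells (95% exact interval 1.07 to 4.39), 0.610% of macrophages (0.325 to 1.04) and no B cell, and without CD3 cells in 1.61% of NK cells and 0.378% of macrophages. Intervals and floors cover counting error only.

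In the B and macrophage gates the members were near the detection limit in most libraries. In the B gate no member passed against the macrophage gate (0 of 10, with 1 at an unadjusted p under 0.05 by edgeR and adjusted p of 0.0592 to 0.690), against 14.8% of genes higher and 20.7% lower. B cell values were 0 in most libraries, and the highest, Cd3g at 42.4 CPM and Trbc2 at 39.4 CPM in unimmunized mouse 1, included 1 CD3 cell. In the macrophage gate the 10 members were at 7.01 to 83.3 CPM in unimmunized mouse 1 and at 0 to 11.8 CPM in the other 3 mice. Leaving out the 15 CD3 cells among the 370 macrophage-gate cells of unimmunized mouse 1 brought Trbc2 from 83.3 to 26.2 CPM and Trdc from 35.0 to 2.54 CPM. Cd3g went from 62.3 to 1.69 CPM, a fall set by the rule, since the CD3 genes chose the cells left out.

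CD3 cells were a smaller share of the sorted cells in immunized mice. They made up 32.1% (95% exact binomial interval 30.4 to 33.9), 21.8% (18.4 to 25.5), 5.41% (4.73 to 6.15) and 2.18% (1.78 to 2.64) of cells, a mean of 27.0 ± 7.32% (SD, n = 2) against 3.79 ± 2.28%. The groups did not overlap, but an exact two-sided permutation test of 2 against 2 mice cannot go below 0.333, which is the value it gave. Within capture 1 the shares were 31.3, 25.7, 5.05 and 2.36%, and within capture 2 33.0, 18.1, 5.79 and 1.99%. With each cell thinned to 2000 UMIs, the threshold was 1 CD3 UMI instead of 3, and shallower cells were left out. The shares were then 36.2, 24.0, 6.18 and 3.08%, against 35.9, 26.3, 9.08 and 6.67% at 1 UMI without thinning. A share of sorted cells cannot tell fewer CD3 cells from more myeloid cells.

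Within the CD3 cells, Trdc-only cells were 19.6, 14.5, 8.68 and 4.85% (178, 17, 19 and 5 cells) and Trac-only cells 54.6, 62.4, 76.3 and 77.7%. Per 100 Trac-only cells this was 35.9, 23.3, 11.4 and 6.25 Trdc-only cells. The mean Trdc-only share was 17.1 ± 3.57% (SD, n = 2) against 6.77 ± 2.70%, with no overlap and the same smallest p of 0.333 by the exact permutation test. Another hashtag caller, HTODemux, kept only 28 CD3 cells of immunized mouse 2, of which 14.3% were Trdc only, and then the groups overlapped (20.1, 13.2, 8.62 and 14.3%).

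**Figure D5:**
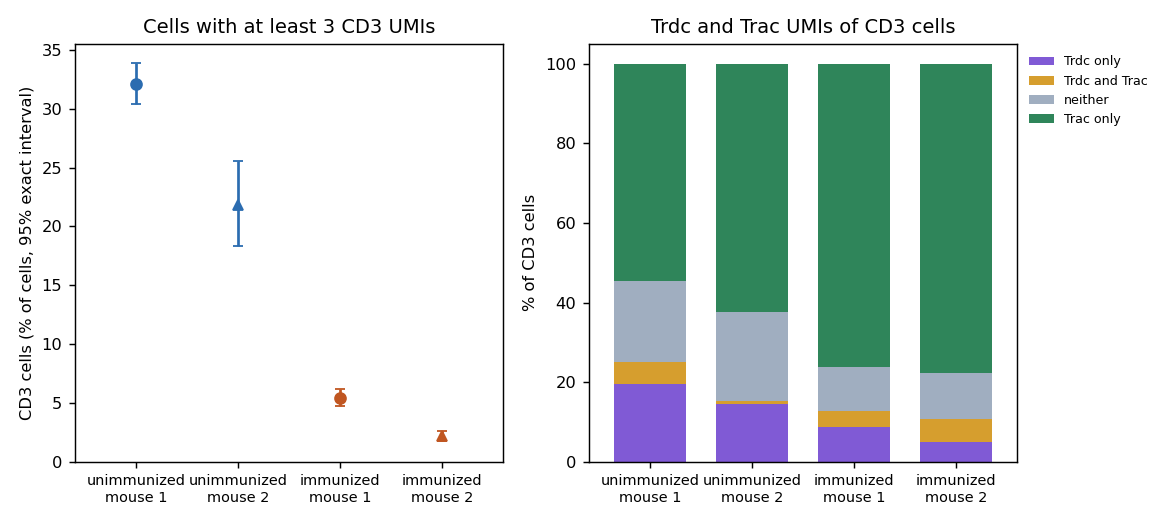
Left, CD3 cells as a percentage of all cells by mouse, with 95% exact binomial intervals, and right, the CD3 cells of each mouse divided by Trdc and Trac UMIs into 4 classes as a percentage. Both the CD3 share (32.1 and 21.8 against 5.41 and 2.18%) and the Trdc-only share are lower in the immunized mice.

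Summed over all cells, every member was lower in both immunized mice, yet none passed the edgeR test. Trdc was at 119, 31.4, 6.13 and 2.44 CPM, Tcrg-C1 at 86.5, 32.5, 6.23 and 1.16 CPM and Trac at 83.1, 53.7, 30.7 and 6.49 CPM. Cd3e was at 188, 104, 23.5 and 6.55 CPM. The log2 differences ran from -1.66 for Trac to -3.91 for Trdc, against a median of -0.02 over all genes. The share of all genes that separated the mice in this way was not counted. All 10 members are mostly carried by the same CD3 cells, so they are not 10 separate results.

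The edgeR test called 0 of 13596 genes in this comparison, 0.0% higher and 0.0% lower, with 3894 at an unadjusted p under 0.05, 9 members among them. The members' adjusted p ran from 0.107 to 0.208, while DESeq2 called 1557 genes, 9 members among them with Trac the exception (adjusted p = 0.331). All 10 members were called lower by edgeR without a filter on low counts, without immunized mouse 1 and without immunized mouse 2, and none with the other settings. In bulk sums of this kind, fewer cells of a type and less RNA per cell cannot be told apart, so the CD3 cells were also compared by themselves.

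In CD3 cells alone, Trac was higher and the gamma constant genes were lower after immunization. These were 1 member higher and 3 lower of the 7 that did not choose the cells, against 3.29% higher and 2.08% lower of 8948 genes. Trac was at 244, 257, 615 and 415 CPM (log2 difference 1.20 ± 0.15, adjusted p = 0.00210, edgeR). Tcrg-C1 was at 248, 157, 115 and 57.3 CPM (-1.08 ± 0.25, adjusted p = 0.0285, edgeR), Tcrg-C2 at 134, 130, 73.4 and 53.8 CPM (-0.88 ± 0.16, adjusted p = 0.00974) and Tcrg-C4 at 89.5, 50.2, 33.3 and 26.9 CPM (-1.19 ± 0.24, adjusted p = 0.0148). The groups did not overlap for any of these, but the share of all genes that separated the 2 and 2 mice in this way was not counted.

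Trdc, at 344, 130, 90.8 and 117 CPM, did not pass (-1.18 ± 0.32, adjusted p = 0.0598, edgeR), nor did Trbc2 (0.42 ± 0.11) or Trbc1 (0.30 ± 0.10). The value of Trdc depended on single mice. It was -0.22 without unimmunized mouse 1 (adjusted p = 0.757), and it was called lower without unimmunized mouse 2 (-1.59, adjusted p = 0.00198), without immunized mouse 1 (-1.001, adjusted p = 9.86e-07), without immunized mouse 2 (-1.42, adjusted p = 2.63e-15) and with no filter on low counts (adjusted p = 2.60e-13), all by edgeR. The CD3 genes, whose levels here depend on the choice of cells, were not tested. No member passed with HTODemux (Trac adjusted p = 0.199) and Trac fell to 0.18 with a CD3 threshold of 1 UMI (adjusted p = 0.841). The calls of Tcrg-C1, Tcrg-C2 and Tcrg-C4 were lost without unimmunized mouse 1, at log2 differences of -0.69, -0.87 and -0.58 (adjusted p of 0.363, 0.0965 and 0.459, edgeR), and with the threshold of 1 UMI, at -2.02, -1.96 and -2.12 (adjusted p of 0.0931, 0.0611 and 0.0638). DESeq2 did not call Tcrg-C1 (adjusted p = 0.384) or Tcrg-C4 (0.0782), and Tcrg-C4 was not called in either capture alone (0.0513 and 0.0522), while Tcrg-C1 and Tcrg-C2 lost their calls in capture 2 (0.0810 and 0.0614, edgeR).

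Trac in immunized mouse 1 was drawn up by few cells. There, 9 of 219 CD3 cells held over 20 Trac UMIs, up to 163, and together 483 of the mouse's 1165 Trac UMIs (41.5%). No CD3 cell of the other 3 mice held over 20. Without them, a setting added after the data were seen, immunized mouse 1 was at 382 CPM and the log2 difference was 0.81 (adjusted p = 0.00358, edgeR), and median Trac UMIs per CD3 cell were 1, 1, 2 and 2.

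These 9 cells had a median of 9849 UMIs in all. Cd4 UMIs were in 6 of the 9, against 37 of the other 210 CD3 cells of that mouse (17.6%), Cd8b1 in 3 against 52, and Cd8a in none. Pdcd1, an inhibitory receptor, was in 4 against 13 cells, Bcl6, the follicular helper factor, in 3 against 11, and Cxcr5, the follicle homing receptor, in 2 against 4. Trbv12-2 was in 3 of the 9 and in 6 of the 210. The cells and these genes were picked after their values were seen, from 1 mouse, and carry no test.

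The class mix differed between the mice, so the members were also read within each class. In Trac-only cells Trac was at 403, 411, 749 and 539 CPM and Tcrg-C1, Tcrg-C2 and Tcrg-C4 (given above) were lower in both immunized than in both unimmunized mice. In Trdc-only cells Trdc was at 1517, 827, 1092 and 1483 CPM, and Trdc, Tcrg-C1, Tcrg-C2 and Tcrg-C4 all overlapped between the conditions. These within-class values were not tested, and the share of all genes that separated the mice within a class was not counted.

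Lists moved in the same comparison. Coreceptor, naive and helper genes were higher in 5 of 11 and lower in none (median 1.17 against -0.002 over all genes): Cd8b1 was at 34.5, 77.2, 119 and 246 CPM, with Cd8a up by 1.80 and Lef1 by 1.55 on the log2 scale. Innate-like genes were lower in 8 of 16 and higher in none (median -0.67), among them Sox13 at 35.7, 28.3, 10.6 and 8.19 CPM, Il18r1, an interleukin-18 receptor chain, at 566, 477, 257 and 207 CPM, and Blk, Zbtb16 and Il7r, which fell by 1.06, 0.92 and 0.87. TCR signalling genes were higher in 2 of 20 and lower in 1, with a median of -0.04. DESeq2 did not call Cd8b1, Cd8a or Lef1 (adjusted p of 0.217, 0.436 and 0.439). Nor did it call Blk, Zbtb16 or Il7r (adjusted p of 0.289, 0.15 and 0.0601), whereas it called Il18r1 (adjusted p = 4.51e-06). Without unimmunized mouse 1 the differences of Cd8a, Lef1 and Blk shrank to 1.07, 0.77 and -0.79.

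Macrophage genes moved as well. Of 9, 6 were higher in CD3 cells of immunized mice and none lower (median 1.05), with C1qa up by 1.52 ± 0.22 (adjusted p = 0.00330, edgeR). Leaving out CD3 cells that also passed a myeloid or B gate, C1qa differed by 0.11 (adjusted p = 0.912, edgeR). C1qa is a marker of the macrophage gate, so this step removed cells with C1qa UMIs, and its smaller difference is no finding. In the same setting Trac kept its call (1.37, adjusted p = 0.00637, edgeR). Tcrg-C1, Tcrg-C2 and Tcrg-C4 were then at -0.92, -0.69 and -1.14 and no longer passed (adjusted p of 0.121, 0.0900 and 0.0547, edgeR). Blk, Zbtb16 and Il7r, at -0.83, -0.74 and -0.73, also lost their calls (adjusted p of 0.143, 0.0587 and 0.0587, edgeR). Cd8a, Cd8b1, Lef1, Sox13 and Il18r1 kept theirs. The part of macrophage RNA in the result was not tested.

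Across the 29 libraries of 1 gate and 1 mouse, the genes most like each member in log2(CPM + 10) were described by Pearson's r over 9621 genes. For Trac these were Nsg2 (0.984), A630023P12Rik (0.963), Bcl11b (0.962), Gm12840 (0.956) and Cd40lg (0.9501). For Trdc they were Gata3 (0.954), F2r (0.946), Thy1 (0.938), Zap70 (0.935) and Il18r1 (0.934), and for the summed CD3 genes Bcl11b (0.972), Klk8 (0.959), Lat (0.958), Faah (0.954) and Cxcr6 (0.948). Trac and Trdc themselves had r = 0.723. Libraries of 1 mouse share capture and depth, Bcl11b is a marker of the T cell gate, and the T cell and type 17 gates set most of the range.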

How the data were processed

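Gene, hashtag and surface antibody counts of 4 mice were used as deposited. Per the labels and the study's methods, the authors aligned reads with Cell Ranger 4.0.0 (mm10, Chromium 3 prime), aggregated 2 captures, and counted hashtags and antibodies with CITE-seq-Count. The deposited matrices hold UMI counts that are not normalized, and 0 per-sample columns were left unused. Of 18662 barcodes, 1242 whose sequence occurs in both captures were left out. The capture was read from the barcode ending. Of the rest, 16182 had hashtag and antibody counts, 15588 held at most 25% mitochondrial UMIs, and 12139 had 1 hashtag with at least 80% and at least 10 of the hashtag counts. Doublets were removed only through the hashtags, so doublets within a mouse remain, and no doublet caller was run. Total UMIs were 18943001 and 3817845 for the unimmunized and 39020653 and 61983132 for the immunized mice.

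A cell entered a gate with at least 3 UMIs from at least 2 of its markers. A cell in both the T cell and type 17 gates counted as type 17, and cells in several other gates were set aside. Counts were summed per mouse, or per mouse and class or gate where at least 5 cells were present, filtered with edgeR's filterByExpr and tested with the edgeR 4.0.16 quasi-likelihood test (R 4.3.3), with condition as a covariate where classes or gates were compared, and Benjamini-Hochberg adjustment over all genes tested at 0.05. Libraries of 1 mouse entered as independent. They come from the same animal, so a fit with the mouse as a block was the alternative. Deviations of the paired libraries correlated at 0.0334 and 0.0530 (Trdc-only with Trac-only cells, unimmunized and immunized mice), -0.0274 and -0.0694 (type 17 with T cell gate) and 0.0898 and 0.148 (NK with macrophage gate). The members and lists were chosen with earlier results of these data known. Named besides the members were variable genes with at least 10 UMIs in CD3 cells, the 5 largest rises and 5 largest falls among called list genes (mean log2 CPM not under 4), and the 5 genes most like Trac, Trdc and the summed CD3 genes. Some genes that these rules or the gates include are not reported here by name.

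Each fit was tested on simulated counts with 200 genes changed 4-fold. The same dispersion was used for all genes of a fit, without the gene-by-gene spread of the real counts. It recovered 80.5% for immunization in all cells (13596 genes), 94% in CD3 cells (8948 genes), 83% between the classes (7177 genes), and 73, 79 and 75% for the type 17, NK and B gate comparisons (10650 genes). False calls numbered 10, 14, 4, 7, 4 and 8 in the same order. These shares do not give the power in the real data, where immunization in all cells had 0 calls. Alternatives were DESeq2 1.42.0, its size factors in edgeR, no filter on low counts, HTODemux of Seurat 5.3.0, a hashtag share of 90%, at most 10% mitochondrial UMIs, each capture alone, each mouse left out, other CD3 and gate thresholds, and thinning to 2000 UMIs. Shares were compared with an exact two-sided permutation test (scipy 1.17.1) and given exact Clopper-Pearson intervals, and tables were handled with pandas 2.3.3 and numpy 2.4.6. Promoters were taken from RefSeq.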

Additional observations from a re-analysis of the deposited data

How the results depend on the processing

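The mean CD3 share and the mean Trdc-only share stayed lower in immunized mice in every setting run, although with HTODemux the Trdc-only shares overlapped between the groups (mean difference -5.19 percentage points). The differences were -28.4 to -18.0 and -12.8 to -7.77 percentage points when single mice were left out. Settings below that leave 1 mouse in a condition assume that it varies like the others. Immunization in all cells had 0 calls, but 1557 with DESeq2, 2720 without a filter and 0 to 4172 with single mice left out, the last without immunized mouse 1 (1304 without immunized mouse 2). The 480 calls in CD3 cells became 162 with DESeq2, 831 without a filter, 0 with HTODemux, 152 in capture 1, 195 in capture 2 and 172 without CD3 cells in other gates, and 40 (without unimmunized mouse 1) to 793 (without immunized mouse 1) with single mice left out. Between Trdc-only and Trac-only cells, 128 calls became 75 with DESeq2, 196 without a filter and 75 in capture 2, and 46 (without unimmunized mouse 1) to 155. Between the type 17 and T cell gates, 274 calls became 165, 445, 105 (HTODemux), 166 (capture 1) and 113 (capture 2), and 81 to 219, with fewest without unimmunized mouse 1. Against macrophages, NK calls went from 4121 to 2580 in capture 2 and 2397 to 3654, and B calls from 3784 to 2500 and 2426 in captures 1 and 2 and 2026 to 3478, with fewest without unimmunized mouse 1. The cause of these changes was not tested.

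With the mouse as a replicate block (paired fit), 167 genes were called between the classes, 377 between the type 17 and T cell gates, 4310 for NK and 3877 for B against macrophages. Among the members the block changed 1 call, Tcrg-C2, which became higher in the type 17 gate.

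Differences (log2) that changed sign were these, of which Tcrg-C1 in the NK gate was a call of the report. In CD3 cells by immunization a threshold of 1 CD3 UMI gave -0.80 for Trbc1, -0.71 for Trbc2, -0.64 for Cd3d and -0.79 for Cd3g, and HTODemux -0.0081 for Trbc2 and -0.057 for Cd3g. Between the classes Trbc1 was 0.12 with HTODemux and -0.75 to 0.028 with single mice left out, and Cd3e -0.024 in capture 1, -0.15 with the threshold of 1 UMI and -0.0063 to 0.078 with single mice left out. Between the type 17 and T cell gates Cd3g was -0.043 in capture 1 and -0.0056 to 0.085. In the NK gate Trac was -0.019 with cells of several gates given to the largest, Tcrg-C1 -0.87 and Tcrg-C2 -0.25 in capture 2, and with single mice left out Tcrg-C1 ranged from -1.22 to 5.70, Tcrg-C2 from -0.92 to 6.10 and Cd3e from -0.0065 to 5.68. The cause was not tested. Fewer than 20 Trdc-only cells in 3 of the 4 mice stand behind the class values. The CD3 genes chose the CD3 cells, so their values in those 2 comparisons are no test.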
